A study of Mus musculus with 8 samples.

Results

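The MAGE genes measured here are 9 genes of the mouse, *Magea4*, *Magea5*, *Magea10*, *Mageb4* and *Mageb16*, which are known as germ-line genes, and *Maged1*, *Maged2*, *Magee1* and *Mageh1*, which are expressed in many tissues. They were chosen by name, as germ-line restricted *Magea* and *Mageb* genes against ubiquitous *Maged*, *Magee* and *Mageh* genes, and make up 9 of the 19751 genes that the arrays name. In the study, VV3 ESCs, a male mouse line with a *Vasa*::Venus transgene that marks expression of *Ddx4* (*Vasa*), were grown on STO feeder cells and transfected with siRNA. Total RNA of 4 samples with *L3mbtl2* siRNA and of 4 samples with control siRNA (AllStars) was hybridised to 8 one-colour arrays, on 2 slides of 4 arrays that each held 2 samples of both groups. The question was how far genes of the germ line are released when L3MBTL2, a subunit of the PCGF6-PRC1 complex, is depleted. According to the methods, Vasa-positive cells were purified by FACS. The comparison is described as Vasa-positive cells after *L3mbtl2* siRNA against VV3 ESCs after control siRNA. Whether these control cells were sorted is not stated, so the siRNA and a selection for reporter-positive cells cannot be told apart. The groups also always took different positions on the slide, which cannot be told apart from the siRNA either.

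MAGE proteins share a MAGE homology domain, through which many of them bind RING-type ubiquitin ligases and alter their activity or their substrates. The *Magea* and *Mageb* genes lie mostly on the X chromosome, are normally expressed in testis and other germ cells, and are reactivated in many tumours as cancer-testis antigens. The *Maged*, *Magee* and *Mageh* genes, with *Ndn*, *Magel2*, *Nsmce3* and *Tro*, are expressed widely, many of them in the nervous system.

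Levels are given as the log2 intensity of a probe minus the 75th percentile of its array, so that 0 is the intensity at that percentile, and the level of a gene is not set against that of another gene. For marker lists, levels are summed and the brightest probe is named. On the *L3mbtl2*-KD arrays 59.5 to 63.9% of spots (median 61.5%) were well above background, and on the control arrays 62.0 to 66.6% (median 64.7%). The number of arrays limits the precision. The siRNA target checked the labels. *L3mbtl2* was at -1.45, -1.26, -1.58 and -1.73 in *L3mbtl2*-KD replicates 1 to 4 and at 0.27, -0.18, -0.21 and -0.31 in control replicates 1 to 4. All 4 *L3mbtl2*-KD samples were below all control samples, and the log2 fold change was -1.40 on both slides.

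Among the germ-line members, *Mageb4* rose, and *Mageb16* was well above background with overlapping groups. The 3 *Magea* genes were not well above background on any array. *Mageb4* (NM_001033492), a germ-cell gene of the *Mageb* subfamily, was at -1.42, -1.82, -1.89 and -1.17 in *L3mbtl2*-KD replicates 1 to 4. In control replicates 1 to 4 it was at -2.97, -3.43, -3.61 and -3.77. Every *L3mbtl2*-KD sample was higher than every control sample, and the probe was well above background on all 8 arrays. The *L3mbtl2*-KD group averaged -1.58 ± 0.34 and the control group -3.45 ± 0.35 (SD, n = 4 each), a gap several times the spread of either group. The log2 fold change was 1.87 (standard error 0.22, 95% confidence interval 1.38 to 2.36), or 3.65-fold, with an adjusted p of 0.0012 from limma (Benjamini-Hochberg, over the 23525 probes tested). The two-sided exact permutation test gave p = 0.0286, the smallest that 4 against 4 samples allow. Here and below this test exchanges samples freely and ignores the replicate numbers, which pair the samples by their values. Within the first slide the log2 fold change was 1.58, where the adjusted p from limma was 0.108, and 2.16 within the second, where it was 0.0246. With the slide as a block the adjusted p from limma was 0.0015. Normexp background correction gave a smaller log2 fold change of 1.34.

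*Mageb16* (NM_028025), another *Mageb* gene, has 2 probes. On the brighter probe it was at 0.85, 1.10, 1.49 and 1.33 in *L3mbtl2*-KD replicates 1 to 4 and at 0.84, 1.06, 1.21 and 1.09 in control replicates 1 to 4. The groups overlapped, and replicate 1 was the lowest sample of both groups. Within each replicate number the *L3mbtl2*-KD sample was the higher, and with this number as a block the adjusted p from limma was 0.153. On the other probe the order within replicate numbers went both ways, and with this block the adjusted p from limma was 0.946. The log2 fold change was 0.14 (95% confidence interval -0.20 to 0.48, adjusted p = 0.563 from limma), and on the other probe it was 0.0066 (95% confidence interval -0.27 to 0.28, adjusted p = 0.977 from limma). Signals of *Mageb16* were thus well above background on all 8 arrays, and the groups differed by less than the spread between samples, although these intervals leave room for changes of less than 2-fold.

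**Figure D1:**
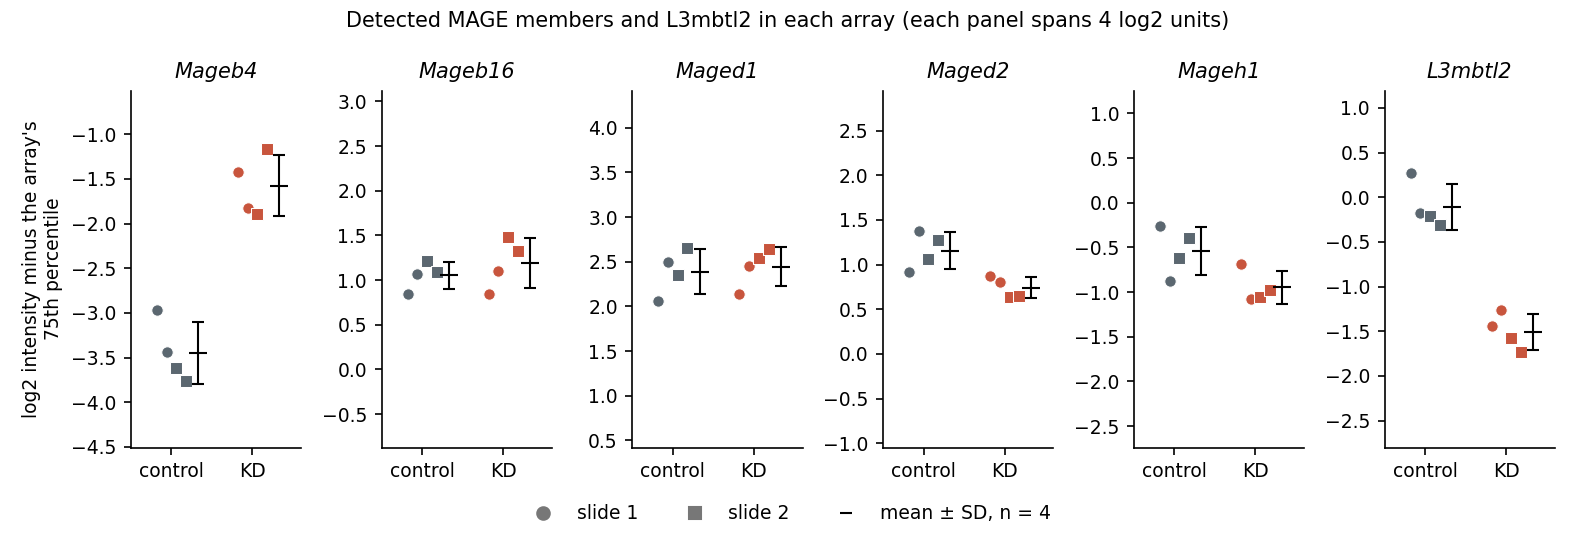
Normalized log2 intensity of 5 MAGE genes and of the siRNA target in control and *L3mbtl2*-KD ESCs, on the probe with the highest mean signal; points are arrays, ordered by replicate from left to right, with circles for slide 1 and squares for slide 2, and bars are the mean ± SD (n = 4). *Mageb4* lies between -1.89 and -1.17 in *L3mbtl2*-KD ESCs and between -3.77 and -2.97 in control ESCs, whereas the groups overlap for *Mageb16*, *Maged1* and *Mageh1*.

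Of the 5 germ-line members, 2 passed the filter for being well above background on every array of a group and were tested, and 1 of these was called up-regulated, which takes an adjusted p under 0.05 and a change over 2-fold in at least 1 probe. Among all genes tested with the same rule, 2.49% were up-regulated (340 of 13653) and 3.21% down-regulated (438). A probe could pass the filter through its brighter group alone, but *Mageb4* and *Mageb16* were above background in both groups. With normexp background correction, 194 genes were up-regulated and 159 down-regulated, and *Mageb4* remained the only germ-line member called.

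The promoters of *Mageb4* and *Mageb16*, the germ-line members tested, are shown because DNA methylation of CpG sites is a known layer of silencing at germ-line genes. That of *Maged1* is shown to set a ubiquitous member beside them. The sequences are from RefSeq (GRCm38.p6), 250 bases that end just before the annotated start, written 5′ to 3′ on the strand of the gene, with each CpG in capitals. The *Mageb4* promoter lies at chrX:86256220-86256469, that of *Mageb16* at chrX:79671436-79671685 and that of *Maged1* at chrX:94542026-94542275, all 3 on the minus strand.
Mageb4: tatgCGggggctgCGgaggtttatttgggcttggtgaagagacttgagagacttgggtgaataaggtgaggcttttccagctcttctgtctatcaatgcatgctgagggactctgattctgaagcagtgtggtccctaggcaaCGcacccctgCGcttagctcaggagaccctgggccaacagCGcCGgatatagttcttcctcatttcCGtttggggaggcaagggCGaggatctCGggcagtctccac
Mageb16: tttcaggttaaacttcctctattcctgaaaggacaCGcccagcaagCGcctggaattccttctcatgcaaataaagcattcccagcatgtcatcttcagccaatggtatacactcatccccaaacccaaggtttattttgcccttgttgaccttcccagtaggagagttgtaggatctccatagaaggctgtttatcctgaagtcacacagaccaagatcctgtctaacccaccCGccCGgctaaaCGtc
Maged1: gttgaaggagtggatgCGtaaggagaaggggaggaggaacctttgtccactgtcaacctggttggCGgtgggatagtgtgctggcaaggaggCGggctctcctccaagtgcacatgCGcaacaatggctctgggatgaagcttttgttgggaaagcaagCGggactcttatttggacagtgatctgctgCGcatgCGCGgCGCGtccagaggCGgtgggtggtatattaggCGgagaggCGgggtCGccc
These stretches hold 9 CpG sites in *Mageb4*, 5 in *Mageb16* and 14 in *Maged1*.

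All 9 members had a promoter window in the RefSeq table, which runs from 250 bases before to 50 bases after the start. Over this window *Mageb4* had 11 CpG sites, *Mageb16* 6, *Magea10* 5, *Magea4* 2 and *Magea5* 0, so that *Mageb4* had the most among the germ-line members. Of germ-line MAGE genes outside the members, named after their values were seen, *Mageb3*, not well above background on any array, had 20. *Magea8* had 10, *Magea2* 9, *Magea3* 0, and *Magea1*, *Magea6*, *Mageb5* and *Mageb18* had 1 each. A link between CpG number and expression was not tested. The ubiquitous members had 20 (*Maged1*), 18 (*Mageh1*), 14 (*Magee1*) and 8 to 19 in the 4 windows of *Maged2*. Over all 32851 windows of the same length the median was 7 and the quartiles were 3 and 20. The E-box CACGTG, the site that MAX binds, was in no window of the 9 members and in 7.15% of all windows. The hexamer TCCCGC, a core of E2F6-type sites, searched on both strands, was in the windows of 3 ubiquitous members, *Maged1* (92 bases before the start), *Mageh1* (72 bases before) and 1 of the 4 windows of *Maged2* (4 bases before). It was in no window of the 5 germ-line members and in 20% of all windows. These matches describe letters in a window and not binding, which was not measured here.

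*Magea4* (NM_020280), *Magea5* (NM_020018) and *Magea10* (NM_001085506) belong to the *Magea* subfamily, whose members resemble each other. Whether a probe also detects other members was not tested, so the values of *Magea* probes are uncertain. The probe of *Magea5* was at -5.86 in *L3mbtl2*-KD replicate 1 and between -7.79 and -7.07 in the other 7 arrays. That of *Magea10* was at -6.16 in the same sample and between -8.26 and -7.52 in the others. *L3mbtl2*-KD replicate 1 was thus the highest array for both genes, while still not well above background. For *Magea4* the *L3mbtl2*-KD samples lay between -7.76 and -7.36 and the control samples between -8.05 and -7.48, and the groups overlapped. No fold change is given for these 3 genes, since neither group was well above background.

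Of the 18 other germ-line MAGE genes listed, 8 had a named probe, 2 were tested, *Magea1* and *Mageb1*, and 0 were called in either direction with limma. This count changed in 4 of 20 alternatives: *Magea1* was called up with the replicate number as a block, without *L3mbtl2*-KD replicate 3 and with 2 wider probe filters, and without any filter on dim probes *Magea3* and *Magea8* were called up as well. At an unadjusted p under 0.05, 1 of the 2 was higher and 0 were lower, against 16.9% of all genes tested higher and 18.8% lower. The higher gene was *Magea1*, whose brighter probe was well above background on 4 *L3mbtl2*-KD arrays and 3 control arrays and so passed the filter only through the group where it is high, and nothing is read from this count or from a call of this probe. *Magea1* (NM_020015), the gene next to *Magea5* in RefSeq order, was at -3.91, -3.34, -5.04 and -4.31 on its brighter probe in *L3mbtl2*-KD replicates 1 to 4, and at -5.12, -4.97, -7.27 and -5.06 in control replicates 1 to 4. The groups overlapped through *L3mbtl2*-KD replicate 3, the lowest of its group, and control replicate 3 was far below the other controls and not well above background. Between the groups, *Magea1* had a log2 fold change of 1.45 (95% confidence interval 0.18 to 2.72, adjusted p = 0.107 from limma), with 1.41 on the first slide and 1.49 on the second. With the replicate number as a block the adjusted p from limma was 0.0108, normexp background correction reduced the log2 fold change to 0.55, and without control replicate 3 it was 0.89 (adjusted p = 0.152 from limma). The fitted values include a control signal that was not well above background and a choice of the probe by its brighter group, so they support no call.

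The other probe of *Magea1* was at -4.21, -5.19, -6.25 and -4.86 in *L3mbtl2*-KD replicates 1 to 4, well above background in 3 of them, and between -8.15 and -7.58 in the control samples, with none well above background. The groups did not overlap. The mean of the *L3mbtl2*-KD samples was at least 1.42-fold higher, as a bound for which each control array stands at the signal of its dimmest probe well above background, or at the probe's own signal if that was higher. With normexp background correction the groups again did not overlap, and the difference of their means was 1.66-fold. The probe missed the filter and so had no test in the fit reported here. It passed an adjusted p of 0.05 in limma without *L3mbtl2*-KD replicate 3, the array on which it was not well above background (0.001), without the filter (0.0093) and with a filter on at least 3 arrays of a group that was chosen after the values were seen (0.0062), and not within the first slide (0.0815). In these fits the control signals were not well above background, and the probe passed a filter only through the *L3mbtl2*-KD group, so these values support no call.

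*Magea3* and *Magea8*, of the same subfamily, showed the same order. *Magea8* was at -4.46, -5.57, -6.51 and -5.61 in *L3mbtl2*-KD replicates 1 to 4 and between -7.65 and -7.12 in the control samples, and *Magea3* between -6.56 and -5.32 against -7.80 and -6.93. For both genes every *L3mbtl2*-KD sample was above every control sample, but only 1 *L3mbtl2*-KD array and 0 control arrays were well above background, and with normexp background correction the groups overlapped for both. *Magea3* and *Magea6* were chosen for mention after their values were seen. *Magea6* was not well above background on any array, and its groups overlapped. *Mageb1*, on the brighter of its 2 probes, had a log2 fold change of 0.029 (95% confidence interval -0.26 to 0.32, adjusted p = 0.90 from limma).

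**Figure D2:**
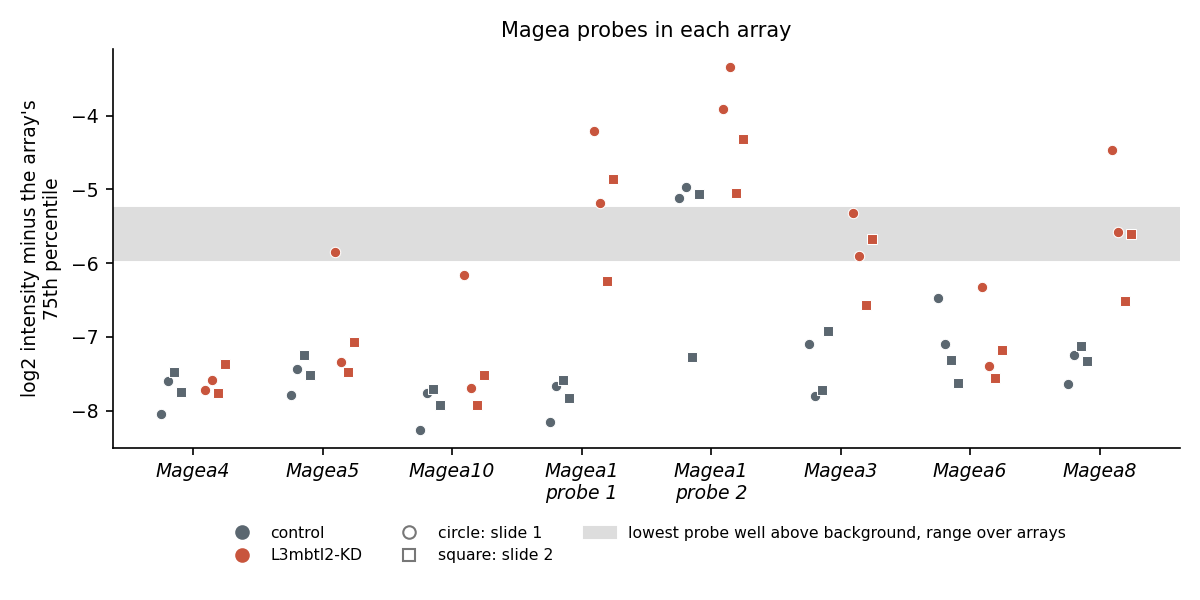
Normalized log2 intensity of the *Magea* probes in each control and *L3mbtl2*-KD array, with circles for slide 1 and squares for slide 2; probe 2 of *Magea1* is the brighter one, and the grey band spans, over the 8 arrays, the signal of the dimmest probe that was well above background (-5.96 to -5.25). *L3mbtl2*-KD samples lie above control samples for probe 1 of *Magea1*, *Magea3* and *Magea8*, and the probes of *Magea4*, *Magea5*, *Magea10* and *Magea6* stay in or below the band.

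Among the ubiquitous members, 3 of 4 were tested, and 0 were called in either direction. *Maged1* (NM_019791), an adaptor that binds the p75 neurotrophin receptor, was at 2.14, 2.45, 2.55 and 2.65 in *L3mbtl2*-KD replicates 1 to 4 and at 2.06, 2.49, 2.35 and 2.66 in control replicates 1 to 4. The groups lay on top of each other, and replicate 1 was lowest in both. Their difference, a log2 fold change of 0.056 (95% confidence interval -0.30 to 0.41, adjusted p = 0.84 from limma), was smaller than the SD of either group.

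*Maged2* (NM_030700), known for its role in salt transport of the fetal kidney, was at 0.87, 0.81, 0.64 and 0.65 in *L3mbtl2*-KD replicates 1 to 4. In control replicates 1 to 4 it was at 0.92, 1.37, 1.06 and 1.28. All *L3mbtl2*-KD samples were below all control samples, but *L3mbtl2*-KD replicate 1 and control replicate 1 were close. The log2 fold change was -0.42 (standard error 0.12, 95% confidence interval -0.69 to -0.14). The adjusted p from limma was 0.0449, and 0.036 with the replicate number as a block. The two-sided exact permutation test, which ignores that number, gave p = 0.0286, the smallest possible. The change was thus less than 2-fold and not called. By slide, the log2 fold change was -0.30 within the first and -0.53 within the second, with adjusted p of 0.565 and 0.0665 from limma, and leaving out any sample other than control replicate 1 moved the adjusted p above 0.05 (0.0559 to 0.113).

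*Mageh1* (NM_023788), a small MAGE protein that also binds the p75 neurotrophin receptor, was at -0.69, -1.08, -1.06 and -0.97 in *L3mbtl2*-KD replicates 1 to 4 and at -0.26, -0.88, -0.62 and -0.39 in control replicates 1 to 4. Within each replicate number the *L3mbtl2*-KD sample was lower, but control replicate 2 was below *L3mbtl2*-KD replicate 1, so the groups overlapped. *Mageh1* thus had a log2 fold change of -0.41 (95% confidence interval -0.76 to -0.062), with an adjusted p of 0.0972 from limma and p = 0.0571 in the two-sided exact permutation test. With the replicate number as a block the adjusted p from limma was 0.0122, and without control replicate 2 it was 0.0443 (log2 fold change -0.52). On the first slide alone the log2 fold change was -0.31, and on the second slide -0.51. *Magee1* (NM_053201), a partner of dystrobrevin, was well above background on 0 *L3mbtl2*-KD arrays and 1 control array and was not tested. It lay between -6.47 and -5.80 in *L3mbtl2*-KD ESCs and between -6.05 and -5.57 in control ESCs, and the groups overlapped.

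Counted without the 2-fold threshold, on the brightest probe of each gene, 1 of the 3 ubiquitous members tested was lower at an adjusted p under 0.05 (*Maged2*) and 0 were higher, against 10.8% of all genes lower and 9.35% higher. At an unadjusted p under 0.05, 2 of the 3 were lower (18.8% of all genes). When the replicate number was a block, 2 of the 3 were lower at an adjusted p under 0.05 from limma, *Maged2* and *Mageh1*, against 23.8% of all genes lower and 22.2% higher. The groups did not overlap for 1 of the 3 in the direction of a fall, and for 1 of the 2 germ-line members in the direction of a rise. Among all genes tested, groups did not overlap in 13.8% with a fall and 12.6% with a rise. The median log2 fold change was -0.41 over the 3 ubiquitous members, -0.013 over the 4 other ubiquitous MAGE genes tested and -0.011 over all genes tested.

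STO feeder cells are fibroblasts, and markers of fibroblasts moved with the groups. Of 14 markers, 12 were tested, 6 were down-regulated (3.21% of all genes tested) and 1, *Loxl1*, was up-regulated (2.49% of all genes tested), with a median log2 fold change of -1.83. *Col3a1*, *Dcn* and *S100a4* passed the filter only through the control group, where they are high. Among the other 9, which were well above background on all 8 arrays, 4 were down-regulated and 1 up-regulated, with a median of -0.88. With normexp background correction 5 of the 12 were down-regulated and 0 up-regulated, with a median of -0.94, since *Pdgfrb* (-0.84) and *Loxl1* (0.89) then changed by less than 2-fold. The size of the fall thus differed with the markers kept and with the normexp setting, which also added an offset and used median spot signals. The summed level of the list, in multiples of the 75th percentile of an array, was 30.8, 37.5, 35.1 and 30.3 in *L3mbtl2*-KD replicates 1 to 4 and 59.4, 64.7, 63.7 and 60.1 in control replicates 1 to 4. The groups did not overlap in this sum, but the probe of *Fn1*, the brightest, made up 66.6 to 81.5% of it. Without *Fn1* and *Vim*, the 2 brightest, a choice made after the values were seen, the sum of the other 12 markers was 1.82, 1.84, 1.74 and 1.73 in *L3mbtl2*-KD replicates 1 to 4 and 3.26, 5.70, 4.61 and 6.71 in control replicates 1 to 4, and the groups again did not overlap. *Col3a1* and *Dcn* were not well above background on any *L3mbtl2*-KD array, which gives falls of at least 7.92-fold for *Col3a1* and at least 12.3-fold for *Dcn* on background-subtracted signals. These bounds hold for those signals only, since the normexp setting gave smaller falls of 2.92-fold and 3.67-fold. *Lum* and *Postn* were not well above background on any array. Among the controls, replicate 1 was lowest for 7 of the 12 markers tested and for *Maged2*, and it was highest for *S100a4* and for *Mageh1*. Fewer cells of a type and less RNA per cell cannot be told apart in these samples, and the part of feeder cells in the values of *Maged2* and *Mageh1* was not tested. A sort for Vasa-positive cells, a gate on the reporter that the VV3 ESCs carry, is described for *L3mbtl2*-KD ESCs and not stated for the controls.

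**Figure D3:**
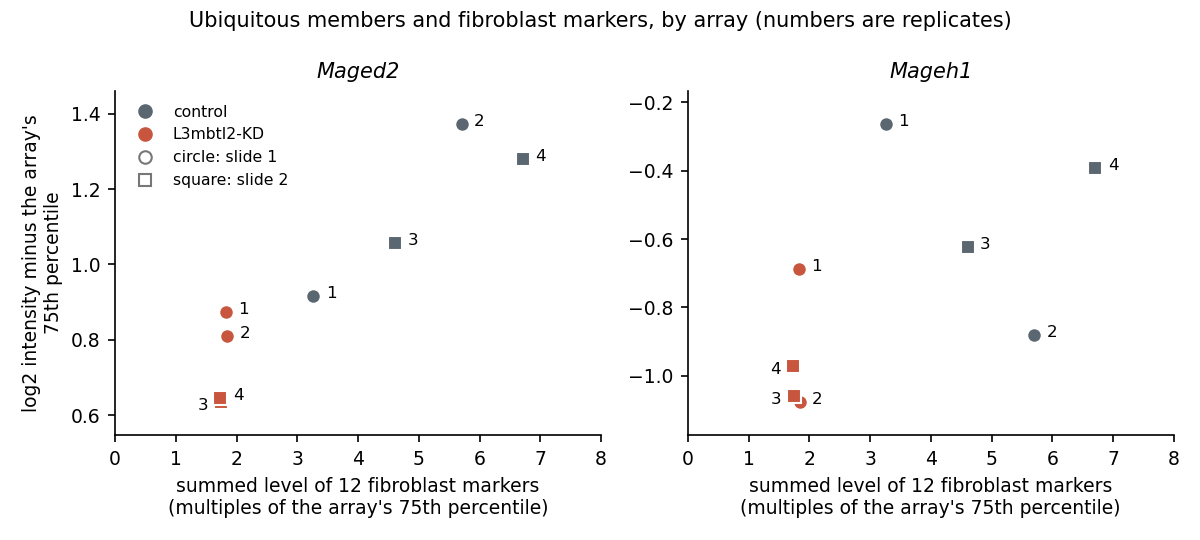
Normalized log2 intensity of *Maged2* and *Mageh1* in each array against the summed level of 12 fibroblast markers, without *Fn1* and *Vim*, in the same array, in multiples of its 75th percentile; colours are the groups, circles slide 1, squares slide 2, and numbers are replicates. The summed level is 1.73 to 1.84 in *L3mbtl2*-KD ESCs and 3.26 to 6.71 in control ESCs, and *Maged2* is lower in every *L3mbtl2*-KD sample than in any control sample.

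Markers of ESCs were well above background in both groups. Of 8 ESC markers, 8 were tested and 0 were called at the 2-fold threshold. A negative log2 fold change was found for 6 of 8 (median -0.20), and for 7043 of 13648 genes tested. *Klf4* was lower at an adjusted p under 0.05 (-0.70, adjusted p = 0.0274 from limma), as were 10.8% of all genes. *Nanog* had the most negative log2 fold change on background-subtracted signals (-1.315, adjusted p = 0.0962 from limma, groups overlapping). With normexp background correction it was -0.69, and that of *Klf4* was -0.74. For *Klf4*, *Pou5f1* and *Tdgf1* all *L3mbtl2*-KD samples were below all control samples, as in 13.8% of all genes. Blocking on the replicate number gave an adjusted p from limma of 0.008 for *Tdgf1*, which was lower, and 0.0316 for *Dppa5a*, which was higher. The summed level, of which the probe of *Dppa5a* made up 52.2 to 65.2%, was 259.3, 286.9, 241.5 and 253.8 in *L3mbtl2*-KD replicates 1 to 4 and 264.5, 279.0, 249.7 and 251.6 in control replicates 1 to 4, and the groups overlapped in this sum. Without *Dppa5a*, left out after the values were seen, the sum was 98.5, 102.8, 100.1 and 88.3 in *L3mbtl2*-KD replicates 1 to 4 and 126.3, 119.4, 118.9 and 102.7 in control replicates 1 to 4. Only *L3mbtl2*-KD replicate 2 was above a control sample in this sum, control replicate 4. Of 4 late PGC markers, 3 were up-regulated (2.49% of all genes tested), *Ddx4*, *Dazl* and *Stra8*, and *Sycp3* was not. Their summed level was 110.0, 93.3, 78.3 and 99.8 in *L3mbtl2*-KD ESCs and 47.1, 32.6, 26.9 and 33.3 in control ESCs. The probe of *Stra8* made up 81.5 to 94.2% of it. Every *L3mbtl2*-KD sample was thus higher than every control sample both in *Mageb4* and in this sum. This is a description, since both differ between the groups. For 12.6% of all genes tested the groups did not overlap in the direction of a rise. Without *Stra8*, left out after the values were seen, this sum was 16.4, 13.9, 14.5 and 15.5 in *L3mbtl2*-KD ESCs and 2.73, 2.88, 2.83 and 2.39 in control ESCs. On every array *Ddx4* was the brightest marker left in this sum. Its log2 fold change was 2.83, against 1.605 for *Dazl* and -0.105 for *Sycp3*. *Ddx4* is also the gene whose reporter marks the Vasa-positive cells that were sorted. The part of this selection in the rise of *Mageb4*, of *Ddx4* and of the late PGC sums, with or without *Stra8*, was not tested. Of 8 housekeeping genes, 0 were called (median log2 fold change 0.042, brightest probe *Ppia*).

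Of the 5 other ubiquitous MAGE genes, 4 were tested, 0 were called and 0 passed an unadjusted p under 0.05 in limma. *Tro* (trophinin, a cell adhesion gene) had a log2 fold change of 0.27 (95% confidence interval -0.017 to 0.56), *Nsmce3*, the MAGE subunit of the SMC5-SMC6 complex, of 0.14 (-0.050 to 0.32) and the imprinted gene *Ndn* (necdin) of -0.16 (-0.35 to 0.030). Their adjusted p from limma was 0.171, 0.283 and 0.217, and with the replicate number as a block that of *Tro* was 0.0149. On the other, dimmer probe of *Tro* the log2 fold change was 0.12. Its adjusted p from limma was 0.649, and 0.563 with that block. *Magel2*, another imprinted gene, named after its values were seen, had a log2 fold change of -0.41, with an interval that comes close to a fall of 2-fold (-0.97 to 0.15, adjusted p = 0.283 from limma). The fitted changes of these 4 genes were thus less than 2-fold, in both directions.

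MAGE proteins act with ligases, and 12 partners were listed, among them *Trim28*, *Trim27*, *Pja1* and *Lnx1*, which encode RING ligases, *Usp7* and *Vps35*, which act with MAGEL2 and TRIM27, and subunits of the SMC5-SMC6 complex. All 12 were tested and 0 were called in limma, while at an unadjusted p under 0.05, 1 was higher (16.9% of all genes) and 2 were lower (18.8% of all genes). When the replicate number was a block, 4 of the 12 were lower at an adjusted p under 0.05 from limma (23.8% of all genes), *Nsmce1*, *Eid3*, *Lnx1* and *Pja1*, and 1 was higher (22.2% of all genes), *Smc5*, where without the block it was *Nsmce1* alone. The median log2 fold change was -0.00077. Of the 3 brightest, *Trim28* had a log2 fold change of 0.27 (adjusted p = 0.101 from limma, with *L3mbtl2*-KD replicate 4 missing), *Usp7* of 0.10 (adjusted p = 0.498) and *Nsmce4a* of -0.073 (adjusted p = 0.673).

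*Nsmce1*, the RING ligase that NSMCE3 binds, was named after its values were seen. It was at 1.69, 1.96, 1.94 and 1.91 in *L3mbtl2*-KD replicates 1 to 4 and at 2.29, 2.50, 2.41 and 2.51 in control replicates 1 to 4. All *L3mbtl2*-KD samples were below all control samples. This is a log2 fold change of -0.55 (95% confidence interval -0.76 to -0.33) with an adjusted p of 0.0065 from limma, less than 2-fold, and its value was -0.57 on the first slide and -0.53 on the second. *Nsmce1* and *Nsmce3* thus had fold changes of opposite sign, and only that of *Nsmce1* passed the adjusted threshold; the difference between them was not tested.

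**Figure D4:**
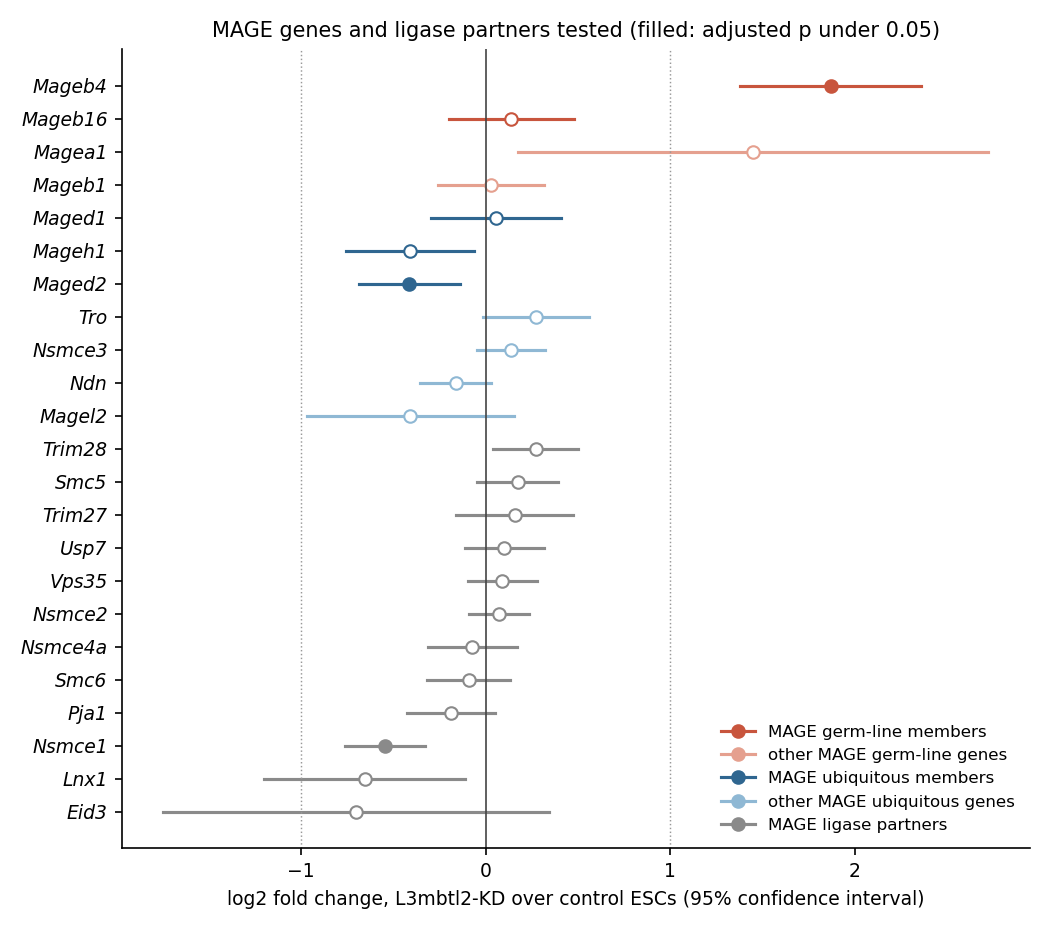
Log2 fold change between *L3mbtl2*-KD and control ESCs with its 95% confidence interval, for the MAGE genes and ligase partners tested; filled circles have an adjusted p under 0.05 in limma, and dotted lines mark 2-fold. *Mageb4* (1.87) is the only gene of the plot that is past both thresholds, and *Maged2* (-0.42) and *Nsmce1* (-0.55) are filled but lie within the dotted lines.

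The 3 genes outside the MAGE family most like *Mageb4* over the 8 arrays, among 13592 genes, were *Slc32a1*, the vesicular GABA transporter (Pearson r = 0.997), *Bag4*, a chaperone regulator (0.997), and *Cyct*, the testis form of cytochrome c (0.994). These r are a description, since the points share 2 groups that differ in level. Their log2 fold changes were 1.89 for *Slc32a1*, 0.50 for *Bag4* and 1.34 for *Cyct* (adjusted p = 0.00081, 0.0066 and 0.00077 from limma). Since the genes were picked for following *Mageb4*, which differs between the groups, these p are a description as well. A gene can thus follow *Mageb4* over the samples with a much smaller fold change.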

How the data were processed

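RNA of 8 samples was measured on one-colour arrays. The authors deposited the background-subtracted intensity of each spot (Agilent Feature Extraction 10.7.3.1) and a table of log2 values, used as an alternative. Here, log2 intensities minus the 75th percentile of each array were averaged over the spots of a probe, without control spots and outlier flags. Of 39429 probes, 26055 were named through RefSeq accessions (GRCm38.p6, 19751 genes). The 23525 probes that all arrays of a group showed well above background were tested with limma 3.58.1 in R 4.3.3 and Benjamini-Hochberg adjustment, a call needing 1 probe or more past 2-fold with an adjusted p under 0.05. The fit was tested on simulated data. One-probe values use the probe with the highest mean signal.

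Samples with the same replicate number deviated together (correlations 0.38 to 0.58, and -0.44 to 0.25 between other pairs), so the numbers pair the samples, as inferred from the values. Alternatives were normexp (offset 50, on median spot signals), quantile normalization, the log2 table, other probe filters, slide or replicate blocks, an intensity trend, the methods' one-way test, 1.5-fold, means over probes, and leaving out samples. The members and lists were chosen with earlier results of these data known. Named genes were the members, *L3mbtl2*, called or 3 brightest genes of other lists, and the 3 genes most like a called member. Other genes were named by position beside a member, by a sample far from its group, or after their values were seen. Protein sequences were not used here.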

Additional observations from a re-analysis of the deposited data

Results flagged for a closer look

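In 3 of 85 groups of 4 samples of the MAGE genes, their partners and *L3mbtl2*, 1 sample lay far from the others by the ratio of its gap to the range of the group; chance gives about 1 in 20, or 4.25 groups. *Mageb5* in control replicate 2 was at -2.21 against -7.73 to -7.20 in the other control samples (ratio 0.904), and this was the only array of 8 on which its probe was well above background. *Magea1*, on its brighter probe, was at -7.27 in control replicate 3 against -5.12 to -4.97 (ratio 0.934). *Nsmce3* was at 0.036 in control replicate 1 against 0.19 to 0.22 (ratio 0.854).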

How the results depend on the processing

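*Mageb4* was the only germ-line member called, and 0 ubiquitous members were called down, under all 20 alternatives run for these counts, 1 of which, the filter on at least 3 arrays, was chosen after seeing the data. The log2 fold change of *Mageb4* ranged from 1.34 to 2.16 over its 18 alternatives and from 1.73 to 2.03 with each sample left out, with adjusted p in limma from 0.00067 to 0.108; the one above 0.05 was the first slide alone (1.58), and the cause was not tested. *Mageb16* stayed between 0.021 and 0.26 on its brighter probe, with an adjusted p above 0.05 throughout. Its other probe was between -0.088 and 0.063 with each sample left out and at -0.0044 on the first slide alone. *Maged1* changed sign without *L3mbtl2*-KD replicate 4 or control replicate 1 (-0.054 to 0.16 over left-out samples). *Maged2* stayed negative, but its adjusted p was above 0.05 without the filter on dim probes (-0.42, adjusted p 0.104, with more probes tested), on the first slide (-0.30) and the second slide alone (-0.53), and in 7 of 8 fits with a sample left out (all but that without control replicate 1; -0.50 to -0.34 over the 8 fits); its range of adjusted p was 0.024 to 0.565. *Mageh1* passed 0.05 with the replicate block (-0.41, adjusted p 0.0122) and without control replicate 2 (-0.52 to -0.32 over left-out samples), with adjusted p between 0.0122 and 0.675; the cause was not tested. The replicate block moved no other adjusted p of a member across 0.05, and it gave 358 genes up and 469 down.

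Normexp background correction gave 194 genes up and 159 down, and the cause was not tested. Restricting the fit to probes above background on all 8 arrays gave 290 genes down. This setting leaves out probes that passed the filter through 1 group only. It held 12954 genes on their brightest probe, against 13648 in the main fit, and the cause of the lower count was not tested. A 1.5-fold threshold gave 700 genes up and 1014 down. With each sample left out, 296 to 371 genes were up and 354 to 500 down. On its brighter probe *Magea1* passed 0.05 with the replicate block alone among 17 alternatives (adjusted p 0.0108 to 0.272), with log2 fold changes of 0.55 to 1.75. The count of other germ-line genes called up, whose alternatives were chosen after seeing the data, was 0 in 16 of 20, 1 with the replicate block, without *L3mbtl2*-KD replicate 3 and with the filter on at least 3 arrays, and 3 without a filter. Within the first slide *L3mbtl2* and *Nsmce1* kept their direction with adjusted p of 0.101 and 0.281. Signal over background limits *Magea4*, *Magea5*, *Magea10* and *Magee1*, for which no fold change is given.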

Other observations

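The nearest genes with a named probe on either side of a member, in RefSeq order, were read as a description. *Nr0b1*, next to *Mageb4*, had a log2 fold change of -0.12 (adjusted p = 0.801 from limma), and *Il1rapl1*, the nearest on the other side, was not well above background on any array. Next to *Mageh1*, *Usp51* had a log2 fold change of -0.72 (adjusted p = 0.0578 from limma), and *Foxr2*, on the other side, of -0.99 (adjusted p = 0.0483 from limma). With the replicate number as a block, their adjusted p was 0.0018 and 0.0085, and with normexp background correction that of *Foxr2* was 0.102 (log2 fold change -0.38). The fold changes of both neighbours thus had the sign of that of *Mageh1*, as had those of 7043 of 13648 genes tested. For both neighbours the adjusted p was above or below 0.05 by setting. The neighbours of *Maged2*, *Tro* and *Gnl3l*, had log2 fold changes of 0.27 and -0.10, and those of *Maged1*, *Apoo* and *Gspt2*, of 0.48 and 0.24, with adjusted p of 0.171, 0.585, 0.0609 and 0.144 in limma. With the replicate number as a block these were 0.0149, 0.288, 0.0022 and 0.0176, and with normexp that of *Apoo* was 0.0451. Beside the other members, the log2 fold change was -0.22 for *Tmem47* (*Mageb16*), 0.092 for *Pbdc1* (*Magee1*) and -0.0057 for *Cnga2* (*Magea4*). Their adjusted p from limma was 0.656, 0.646 and 0.987. *Gabre*, *Gabra3*, *Fam47c* and *E530001F21Rik* were not tested, and *Magea1* and *Magea8*, beside *Magea5*, are given above.

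All 9 members are X-linked. Of the 488 genes of chromosome X tested, 55 were up-regulated (11.3%) and 16 down-regulated (3.28%), against 2.49% and 3.21% of all genes tested. This count was chosen after the data were seen and was not tested.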
